A study of Homo sapiens with 10 samples.

Results

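The genes described here are 9 immediate-early genes of 3 families: EGR1, EGR2 and EGR3, NR4A1, NR4A2 and NR4A3, and IER2, IER3 and IER5. They were chosen as members of these families, with earlier results of these data known, and are 9 of the 58735 genes in the deposited count tables. RNA was sequenced from TPC-1 cells, a standard human line from papillary thyroid carcinoma with a RET fusion, with an empty vector (EV, 5 libraries) or with overexpression (OE, 5 libraries) of the long non-coding RNA PTCSC3-AS1. Both groups are the same line, and the promoter of the vector, how and when it was brought into the cells, and any stimulus are not stated in the labels. Replicates 1 to 3 of each group form the first deposited table, called the first set, and replicates 4 and 5 the second, called the second set. The column headers name the groups EST_OE and Empty_Vector in the first set and OE and EV in the second. The sample titles are OE and EV throughout and were followed here. The labels do not say what separates the sets or whether replicates are separate cultures, so p-values cover only the spread between libraries, and some of it may be technical.

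The libraries held 15761474 to 18066559 counts, and 3 counts, taken as the limit that a count of 0 allows, equal 0.166 to 0.190 CPM, the count scaled to a common library size, for counting error only. No gene of the tables bears the name PTCSC3-AS1, so the OE labels could not be checked against that RNA. Of 7 thyroid follicular markers, the lineage factors PAX8 (359.6 to 479.2 CPM) and FOXE1 (13.9 to 30.7 CPM) were present, while NKX2-1, TSHR and SLC5A5 had 0 counts in all 10 libraries, and TG lay at 0.0594 to 1.37 CPM. Of 5 epithelial markers, the keratins KRT8 and KRT18 were at 81.5 to 162 and 222 to 308 CPM and KRT7 at 1.35 to 7.502, while EPCAM (at most 0.319 CPM) and KRT19 (at most 0.389 CPM) were near or at 0. CD3E, COL1A2, DCN and KDR, which mark leukocytes, fibroblasts and endothelium, were at 0 in all 10 libraries. Other markers of these types had counts in every library: COL1A1 (2.12 to 4.67 CPM), PDGFRB (2.39 to 5.48), LUM (0.285 to 1.36), CD14 (0.281 to 1.48) and PECAM1 (0.297 to 1.15). Summed markers of these 3 other cell types lay at 0.281 to 1.61 CPM in the first and 0.524 to 0.687 in the second for leukocytes, 6.45 to 9.80 and 7.33 to 8.78 for fibroblasts, and 0.514 to 1.15 and 0.297 to 1.203 for endothelium.

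All 9 are protein-coding genes, placed as in the deposited tables on hg38. EGR1 (ENSG00000120738) lies at chr5:138465490-138469315 on the plus strand, EGR2 (ENSG00000122877) at chr10:62811996-62919900 on the minus strand and EGR3 (ENSG00000179388) at chr8:22687659-22693302 on the minus strand. NR4A1 (ENSG00000123358) lies at chr12:52022832-52059507 (plus), NR4A2 (ENSG00000153234) at chr2:156324432-156342348 (minus) and NR4A3 (ENSG00000119508) at chr9:99821855-99866891 (plus). IER2 (ENSG00000160888) lies at chr19:13150415-13154908 (plus), IER3 (ENSG00000137331) at chr6:30743199-30744554 (minus) and IER5 (ENSG00000162783) at chr1:181088712-181092899 (plus).

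Immediate-early genes are transcribed within minutes of a stimulus, without the need for new protein synthesis, and their RNA is short-lived. Growth factor signals reach them through the RAS-ERK cascade, which phosphorylates ternary complex factors such as ELK1 that sit with serum response factor (SRF) on CArG boxes, and cyclic AMP or calcium signals reach them through CREB. EGR proteins are zinc finger transcription factors, NR4A proteins are orphan nuclear receptors that act without a known ligand, and the IER genes share a name for their rapid induction, IER2 and IER5 being relatives and IER3 a separate regulator of survival and stress signalling. In papillary thyroid carcinoma the ERK cascade is driven by oncogenic kinases, of which the RET fusion is one.

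The start regions of EGR1, EGR2, NR4A3 and IER5 are shown because they carry different sets of the sites through which such signals act. Sequences are from RefSeq (GRCh38.p14) and run 5′ to 3′ on the gene's strand, ending 1 base before the start of transcription. Capitals mark CArG boxes and the cyclic AMP response element core TGACG, which reads CGTCA when it lies on the other strand. The EGR1 region is chr5:138465229-138465478 (plus strand), that of EGR2 chr10:62816367-62816616 (minus strand, the third of 3 listed starts), and that of IER5 chr1:181088450-181088699 (plus strand). For NR4A3, chr9:99821635-99821854 (plus strand), the last 30 bases before the start are left out because they lie in the first exon of the deposited gene model.

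EGR1: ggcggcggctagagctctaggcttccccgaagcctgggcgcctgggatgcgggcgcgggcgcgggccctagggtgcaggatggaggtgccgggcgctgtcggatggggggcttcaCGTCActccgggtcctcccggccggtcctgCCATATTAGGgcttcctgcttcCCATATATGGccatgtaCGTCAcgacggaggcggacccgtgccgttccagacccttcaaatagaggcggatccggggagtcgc
EGR2: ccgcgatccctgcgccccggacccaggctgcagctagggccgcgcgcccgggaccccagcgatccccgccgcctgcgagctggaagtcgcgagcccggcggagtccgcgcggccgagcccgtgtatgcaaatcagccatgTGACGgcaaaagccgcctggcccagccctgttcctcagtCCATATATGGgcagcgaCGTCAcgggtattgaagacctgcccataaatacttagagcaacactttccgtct
NR4A3: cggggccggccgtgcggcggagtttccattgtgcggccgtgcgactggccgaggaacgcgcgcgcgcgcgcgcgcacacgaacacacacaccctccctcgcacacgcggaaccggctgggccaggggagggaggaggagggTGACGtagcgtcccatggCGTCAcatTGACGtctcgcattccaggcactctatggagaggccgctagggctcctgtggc
IER5: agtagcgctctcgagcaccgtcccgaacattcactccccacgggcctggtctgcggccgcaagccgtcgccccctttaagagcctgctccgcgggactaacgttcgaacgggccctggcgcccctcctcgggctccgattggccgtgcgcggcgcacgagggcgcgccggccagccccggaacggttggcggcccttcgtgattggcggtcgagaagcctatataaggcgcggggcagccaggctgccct

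The table holds starts of 6 of the 9 members, and EGR3, NR4A2 and IER3 are named only. EGR1 had 2 CArG boxes, at -105 and -83 from the start, flanked by TGACG at -135 and -66. The third start of EGR2 had 1 CArG box at -71 with TGACG at -110 and -54, while its first and second starts had neither and held GGGCGG, the core bound by SP1. A CArG box stood in 1.16% of all 35116 promoter windows of 250 bases and TGACG in 21.2%, searched on both strands. NR4A3 had 4 TGACG, of which those at -109, -91 and -83 are in capitals and that at -25 lies in the 30 bases left out, and no CArG box, and IER2 had 1 TGACG at -140. IER5 had neither, and its window held 1 CCGGAA, the core bound by ETS factors, at -74. A match describes the letters of the window only.

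Levels of the members differed widely and were compared between genes as CPM per kilobase of the deposited gene length. IER3 was highest, with a median of 144.6 CPM per kb over the 10 libraries (100.9 to 199.4), above 98.3% of the 14217 genes tested, by mean level per kb. EGR1 came next at a median of 32.0, with libraries from 1.06 to 43.3. IER5 (19.5, range 15.9 to 24.6) and IER2 (16.2, range 6.47 to 19.1) followed.

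The nuclear receptors and the other EGR genes were low. NR4A1 had a median of 0.804 CPM per kb and NR4A2 of 0.539, and EGR3 (0.238), NR4A3 (0.168) and EGR2 (0.142) were above 6.34%, 3.48% and 2.22% of tested genes. In counts this means 54 to 149 reads for NR4A1, 21 to 68 for NR4A2, 9 to 49 for EGR3, 14 to 46 for NR4A3 and 2 to 18 for EGR2 in a library. In this order IER3, IER5 and IER2 each stood above the next gene in all 10 libraries and NR4A1 in 9. The neighbours EGR1 and IER5 (EGR1 higher in 6 of 10), NR4A2 and EGR3 (7 of 10), EGR3 and NR4A3 (6 of 10) and NR4A3 and EGR2 (6 of 10) changed places between libraries.

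Within the families, EGR1 made up 98.1% to 98.6% of the summed level per kb of the 4 EGR genes in the first set and 79.9% to 95.3% in the second. EGR4, the remaining EGR gene, had 2 counts in OE replicate 2 and 0 in the other 9 libraries. NR4A1 made up 44.8% to 68.2% of the NR4A level in the first set and 27.0% to 60.3% in the second. Among IER2, IER3, IER5 and the IER5 paralogue IER5L, IER3 made up 75.4% to 78.4% in the first set and 74.1% to 78.1% in the second.

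**Figure D1:**
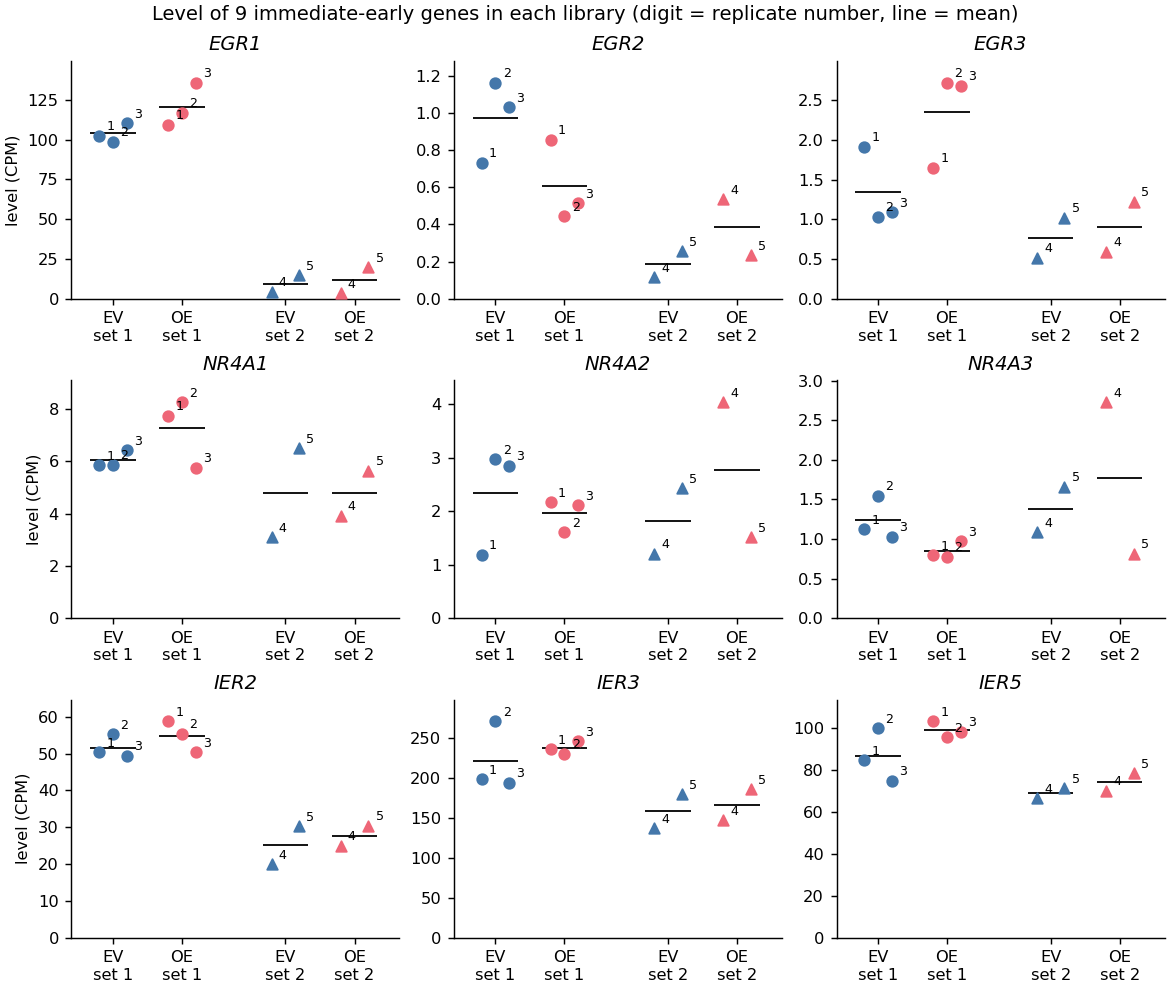
Level of each of the 9 genes in every library, in CPM on linear axes that start at 0. Points are libraries (blue EV, red OE; circles first set, triangles second set; the digit is the replicate number) and lines are means of the group in the set. EGR1 lies between 98.6 and 136 CPM in the 6 libraries of the first set and between 3.32 and 19.9 in the 4 of the second.

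The comparison the design states is OE against EV. Over both sets, 8 members had enough reads to be tested, and 0 rose or fell with PTCSC3-AS1 by edgeR's quasi-likelihood test (0 of 14217 genes, a background of 0%). At an unadjusted p under 0.05 by edgeR the count of members was also 0, beside 812 of 14217 genes. DESeq2 and limma-voom called 0 members. All changes in this and the next paragraphs are log2 fold changes with a standard error (SE). Of the 8 members 7 lay above 0, beside 6988 of 14217 genes. The median was 0.13 against -0.0028 for all genes tested. Mitochondrial genes took 4.66% to 5.08% of counts in EV and 4.29% to 4.50% in OE of the first set, and 4.45% to 4.81% and 4.10% to 4.24% in the second, so EV lay above OE without overlap in each set, and the part of this in the members' values was not tested.

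EGR1, a growth factor-induced activator of transcription, had 102.6, 98.6, 110.5, 4.41 and 14.7 CPM in EV replicates 1 to 5 and 109.2, 117, 135.8, 3.32 and 19.9 in OE. OE was the higher library of the same number in 4 of 5, and the groups overlapped. The change was 0.24 (SE 0.31), made up of 0.21 (SE 0.11) for the first set alone and 0.30 (SE 0.79) for the second. The sign in the second set rests on single libraries, since it was -0.34 without EV replicate 4 and -1.51 without OE replicate 5, and over both sets it was -0.10 without OE replicate 5.

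EGR3, a relative of EGR1 needed for muscle spindles, had 1.91, 1.03, 1.09, 0.515 and 1.02 CPM in EV and 1.65, 2.72, 2.68, 0.594 and 1.22 in OE. OE replicates 2 and 3 were the 2 highest libraries, while replicate 1 was higher in EV. Its change of 0.62 (SE 0.32, adjusted p = 0.847 by edgeR) was the largest among the members. In the first set it was 0.78 (SE 0.36, adjusted p = 0.579 by edgeR) and in the second 0.25 (SE 0.62), with signs turning in the second set without EV replicate 4 (-0.17) or OE replicate 5 (-0.36). An opposite-strand transcript, AC055854.1, overlaps EGR3 and had 3 to 14 counts, and the labels do not say whether counting used the strand.

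EGR2, known for its role in myelinating Schwann cells, had enough reads to be tested in the first set only. It had 0.731, 1.16, 1.03, 0.115 and 0.255 CPM in EV and 0.855, 0.444, 0.514, 0.534 and 0.233 in OE. In the first set OE replicates 2 and 3 lay below all 3 EV libraries and OE replicate 1 between them, a change of -0.69 (SE 0.43, adjusted p = 0.693 by edgeR).

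NR4A1, which binds DNA as a monomer and is induced by many mitogens, had 5.85, 5.87, 6.42, 3.09 and 6.51 CPM in EV and 7.75, 8.27, 5.76, 3.92 and 5.64 in OE. The groups overlapped in both sets, and the change was 0.16 (SE 0.20). NR4A2, essential for dopamine neurons, had 1.18, 2.97, 2.85, 1.203 and 2.43 CPM in EV and 2.17, 1.61, 2.11, 4.04 and 1.51 in OE, a change of 0.10 (SE 0.34) that was -0.25 without OE replicate 4, -0.11 without EV replicate 4 and -0.05 without EV replicate 1.

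NR4A3, a partner in the fusion of extraskeletal myxoid chondrosarcoma, had 1.13, 1.55, 1.03, 1.09 and 1.66 CPM in EV and 0.798, 0.777, 0.970, 2.73 and 0.815 in OE. In the first set every OE library lay below every EV library, as did 7.86% of all genes tested there, and the change was -0.54 (SE 0.36, adjusted p = 0.714 by edgeR). In the second set OE replicate 4 was the highest of the 10 libraries and OE replicate 5 among the lowest, and the change was 0.37 (SE 0.62), or -0.74 without OE replicate 4. Over both sets it was -0.14 (SE 0.35), and 0.01 without EV replicate 2 and 0.02 without OE replicate 5. The difference of the change between the sets was 0.90 for NR4A3 (SE 0.69) and 0.86 for NR4A2 (SE 0.69), which did not pass the interaction test in edgeR (adjusted p = 0.9998 for both).

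Over both sets the IER genes had the narrowest intervals. IER2, a nuclear protein linked to cell motility, had 50.35, 55.25, 49.4, 19.9 and 30.3 CPM in EV and 58.8, 55.5, 50.45, 24.9 and 30.4 in OE, a change of 0.11 (SE 0.11, 95% interval -0.12 to 0.34). OE was higher in all 5 numbers, by 0.0047 to 0.33 on the log2 scale, and the groups overlapped within each set. IER3, which protects cells from some death signals and is also an NF-kB target, had 198.5, 270.4, 193.7, 136.9 and 179.7 CPM in EV and 236, 229.9, 245.7, 146.8 and 185.8 in OE, a change of 0.09 (SE 0.11, 95% interval -0.13 to 0.32). IER5, a regulator of heat shock factor HSF1, had 84.6, 100.04, 74.9, 66.5 and 71.25 CPM in EV and 103.1, 95.6, 98.3, 70.0 and 78.4 in OE, a change of 0.16 (SE 0.08, 95% interval -0.01 to 0.34).

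EV replicate 2 was the highest EV library for IER3 and for IER5 in the first set, and it stood apart over all genes, with a chi-square of 38.2 and 45.2 per degree of freedom against EV replicates 1 and 3, which differed from each other by 4.30. Without it, IER3 (0.27, adjusted p = 0.00713) and IER5 (0.31, adjusted p = 0.00895) passed edgeR's test in the first set as higher in OE, 2 of 9 members beside 6.07% of all 14769 genes called higher and 4.62% lower in that fit. With all 6 libraries of the first set the changes were 0.10 (SE 0.13) and 0.19 (SE 0.11), 0 of the 9 members were called, and the background was 0.0349%, 5 genes that were all lower. A correction for GC content turned the first-set sign of IER2 (0.08 to -0.07) and IER3 (0.10 to -0.02). In the second set 0 of 8 members were called (background 0%), and in the test of the difference between the sets 0 of 8 (background 0.00703%, 1 gene).

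**Figure D2:**
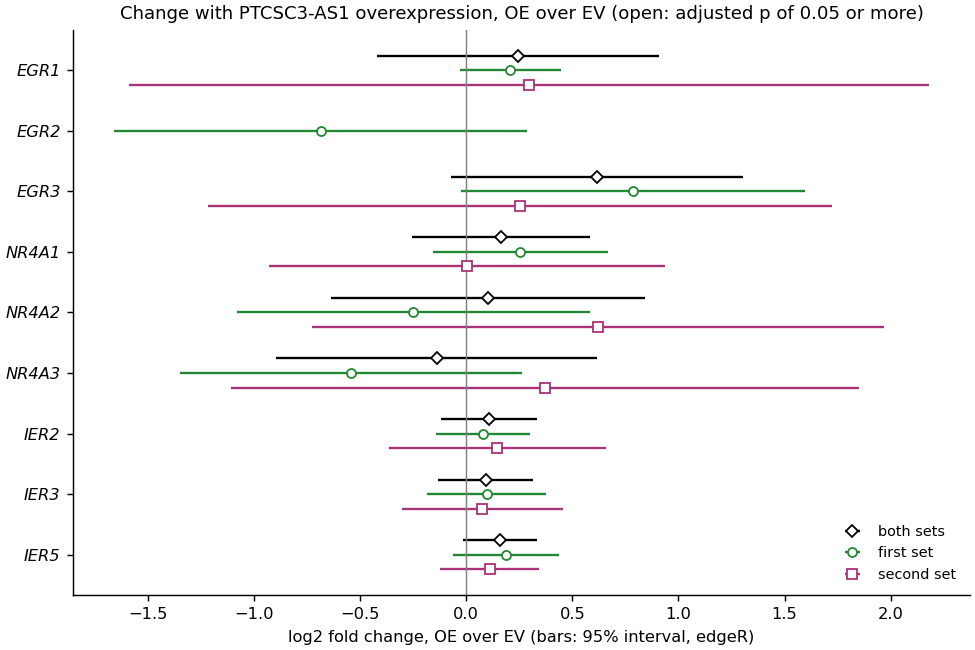
Log2 fold change of OE over EV for each member with its 95% interval, over both sets (black diamonds), in the first set (green circles) and in the second (purple squares). All symbols are open, so no adjusted p was under 0.05. The intervals of IER2, IER3 and IER5 are the narrowest over both sets and in the second set. In the first set the interval of EGR1 is narrower than those of IER3 and IER5. EGR2 has a first-set value only.

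The authors' deposited table compares single OE and EV libraries of the second set. For replicate 4 its log2 fold changes were -0.40 for EGR1, 2.16 for EGR2, 1.75 for NR4A2 and 1.33 for NR4A3, and for replicate 5 the same table gave 0.45, -0.12, -0.67 and -1.01. These 4 genes thus had opposite signs in the 2 library pairs of the authors' deposited table. For IER2 (0.33 and 0.01), IER3 (0.11 and 0.06), IER5 (0.08 and 0.15) and EGR3 (0.21 and 0.26) the signs in the authors' deposited table were the same in both, and for NR4A1 they were 0.35 and -0.20.

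The sets were compared next. With the vector as a term, 5 of 8 tested members were lower in the second set and 0 higher, where 9.17% of 14217 genes were lower and 9.27% higher by edgeR. The labels give no condition that separates the sets, so time, culture and handling cannot be told apart here, and in bulk RNA fewer cells with a transcript and less of it per cell cannot be told apart. The median change of the 8 was -0.48 against -0.0012 for all genes tested.

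EGR1 had the largest difference. Its 6 first-set libraries lay at 98.6 to 135.8 CPM and its 4 second-set libraries at 3.32 to 19.9, with no overlap, as for 7.88% of genes that were lower without overlap. The change was -3.41 (SE 0.36, adjusted p = 6.64e-05 by edgeR), which is 10.7-fold lower (95% interval 6.22 to 18.3). It stayed past the threshold in all 10 fits that left out 1 library, at -3.96 to -3.09. In CPM per kb EGR1 stood second among the members in each library of the first set, at 31.4 to 43.3, and at 1.06 to 6.34 in the second, below IER2 and IER5.

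IER2 followed, from 49.4 to 58.8 CPM in the first set to 19.9 to 30.4 in the second, without overlap. The change was -1.02 (SE 0.11, adjusted p = 8.35e-05 by edgeR), which is 2.02-fold lower (95% interval 1.71 to 2.39). IER3 lay at 193.7 to 270.4 CPM in the first set and at 136.9 to 185.8 in the second, again without overlap, with a difference of -0.50 (SE 0.11, adjusted p = 0.00702 by edgeR). IER5 lay at 74.9 to 103.1 CPM and at 66.5 to 78.4, ranges that overlap, with a difference of -0.37 (SE 0.08, adjusted p = 0.00816 by edgeR). These 3 were called in all 10 fits that left out 1 library. The paralogue IER5L, at 27.0 to 35.3 CPM in the first set and 28.1 to 35.0 in the second, had a change of -0.03 (SE 0.10).

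EGR3 was lower by -1.11 (SE 0.34, adjusted p = 0.0363 by edgeR), with 1.03 to 2.72 CPM in the first set and 0.515 to 1.22 in the second. Its ranges overlapped, and the call ended without EV replicate 1 (-0.998, adjusted p = 0.0810), EV replicate 4 (-1.01, 0.112), OE replicate 2 (-1.03, 0.0843), OE replicate 3 (-1.04, 0.0739), OE replicate 4 (-0.88, 0.130) or OE replicate 5 (-1.25, 0.0584). EGR2 had 0.444 to 1.16 CPM in the first set and 0.115 to 0.534 in the second. It was below the filter on low counts, and without that filter its change was -1.42 (SE 0.54, adjusted p = 0.0767 by edgeR). With OE replicate 4 left out EGR2 passed the filter and the test (-2.0003, adjusted p = 0.0229), and in the 5 other such fits in which it passed the filter it was not called.

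The NR4A genes did not pass the test. NR4A1 had 5.76 to 8.27 CPM in the first set and 3.09 to 6.51 in the second, a change of -0.47 (SE 0.20, adjusted p = 0.122 by edgeR) that was called without EV replicate 5 (-0.73, adjusted p = 0.0248). NR4A2 had 1.18 to 2.97 and 1.203 to 4.04 CPM, a change of 0.09 (SE 0.35) whose sign turned without EV replicate 1 (-0.03), OE replicate 2 (-0.01) or OE replicate 4 (-0.37). NR4A3 had 0.777 to 1.55 and 0.815 to 2.73 CPM, which gave 0.61 (SE 0.35, adjusted p = 0.253 by edgeR). The share of mitochondrial counts was 4.29% to 5.08% in the first set and 4.10% to 4.81% in the second, and the epithelial markers summed to 306.1 to 416.8 CPM and 391.5 to 453.9 CPM, with KRT7 higher in the second set (1.11, called by edgeR but not in every fit that left out 1 library). The part of either in the difference was not tested.

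**Figure D3:**
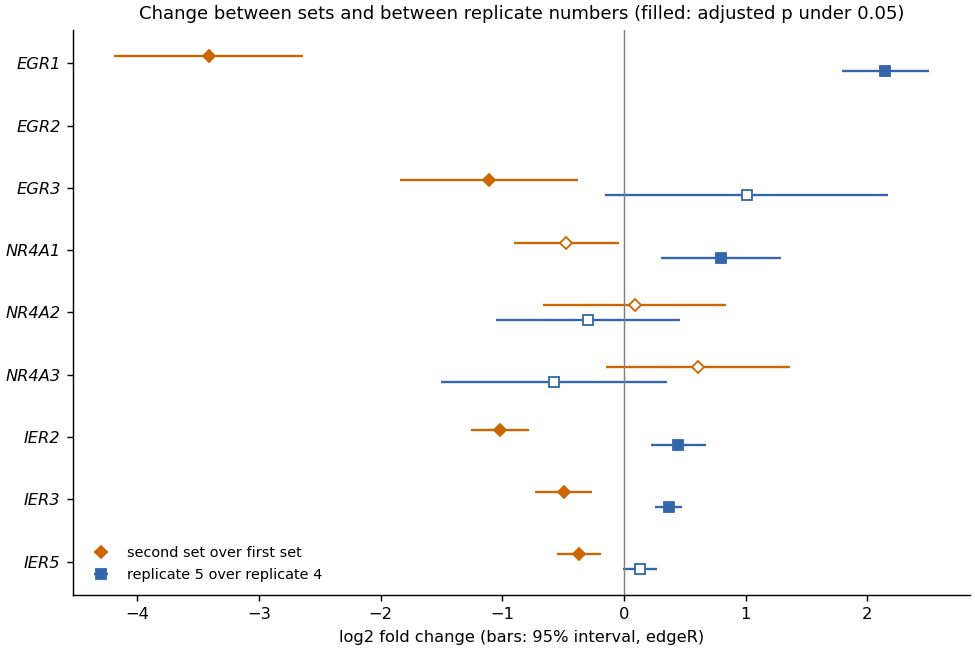
Log2 fold change of each member between the sets (orange diamonds, second over first) and between replicate numbers 5 and 4 of the second set (blue squares), with 95% intervals; filled symbols passed an adjusted p under 0.05 and EGR2 was not tested. EGR1 stands at -3.41 between the sets and at 2.15 between the numbers, and the filled members all lie below 0 in the first contrast and above 0 in the second.

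Within the second set, libraries numbered 5 were compared with those numbered 4, 2 against 2. EGR1 stood at 4.41 (EV) and 3.32 CPM (OE) in replicate 4, and at 14.7 (EV) and 19.9 CPM (OE) in replicate 5, so both vectors showed the same order. The change was 2.15 (SE 0.18, adjusted p = 2.78e-29 by edgeR), which is 4.43-fold higher in replicate 5. With 1 residual degree of freedom per gene, edgeR pooled the spread over all genes here, so this p-value assumes that each member varies like other genes of its level.

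In that fit 4 of 8 members were higher in replicate 5 and 0 lower, beside 7.28% of 14419 genes higher and 7.1% lower. NR4A1 had 3.09 and 3.92 CPM in replicate 4 and 6.51 and 5.64 in replicate 5 (0.80, SE 0.25, adjusted p = 0.0166 by edgeR), IER3 136.9 and 146.8 against 179.7 and 185.8 (0.37, SE 0.06, adjusted p = 6.28e-09 by edgeR) and IER2 19.9 and 24.9 against 30.3 and 30.4 (0.45, SE 0.12, adjusted p = 0.00206 by edgeR). DESeq2, which estimates the spread in another way, called EGR1 and IER3, beside 1.39% of genes called higher and 1.22% lower. DESeq2 called neither NR4A1 (adjusted p = 0.517) nor IER2 (adjusted p = 0.273). EGR3 (1.01, SE 0.59) and IER5 (0.13, SE 0.07) did not pass, although replicate 5 was above replicate 4 in both groups, as it was for 25.7% of genes. NR4A2 (-0.29, SE 0.39) and NR4A3 (-0.58, SE 0.47) lay below 0. Mitochondrial counts took 4.10% to 4.45% of replicate 4 and 4.24% to 4.81% of replicate 5, and 2 of 3 tested epithelial markers, KRT8 and KRT7 (both -0.74), were lower in replicate 5 by edgeR. The part of either was not tested.

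Other genes of the pathway were taken from lists drawn up for their roles. Among 33 tested immediate-early genes outside the 9, 15 were lower in the second set than in the first and 4 higher by edgeR, with a median of -0.31. Over all 14217 genes 9.17% were called lower and 9.27% higher. Called lower in all 10 fits that left out 1 library were 10 of them: FOS (-2.89, SE 0.35) and FOSB (-1.34, SE 0.09), subunits of AP-1, JUN (-0.52) and JUNB (-0.59), their partners, ZFP36 (-0.82), which speeds decay of AU-rich RNA, and TRIB1 (-0.78), SGK1 (-0.71), GEM (-0.60), RHOB (-0.55) and HBEGF (-0.53). Higher in all 10 such fits were the phosphatase gene DUSP2 (1.12, SE 0.25) and the YAP targets CTGF (0.32, SE 0.07) and CYR61 (0.31, SE 0.07). The other 5 lower and 1 higher of the list each lost their call in at least 1 such fit. EGR1 and FOS had the 2 largest falls among the members and these 33 genes.

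Of 10 tested inhibitors that ERK signalling induces against itself, 5 were lower in the second set and 0 higher, and 4 were called in all 10 fits that left out 1 library: SPRY1 (-1.27, SE 0.17), SPRY2 (-0.46, SE 0.07), SPRY4 (-0.41, SE 0.08) and the ERK phosphatase gene DUSP6 (-1.12, SE 0.10). The fifth, SPRED3 (-0.49, SE 0.13), did not pass when EV replicate 4 was left out (-0.39, adjusted p = 0.0905), nor on leaving out OE replicate 4 (-0.45, adjusted p = 0.0746). The median of the list was -0.42, and over all 14217 genes 9.17% were called lower and 9.27% higher.

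The kinases and factors that carry the signal were counted the same way, beside 9.27% of all 14217 genes called higher and 9.17% lower. In the RAS-ERK cascade 2 of 15 genes were higher in the second set and 0 lower, with a median of -0.04. The 2 were the nuclear kinase gene RPS6KA4 (0.53, SE 0.08) and the ERK kinase gene MAP2K2 (0.31, SE 0.09). MAP2K2 was not called in every fit that left out 1 library, and it also lost its call under 1 of the other alternatives (0.17). Among 16 factors that act on immediate-early promoters, MEF2D (0.39, SE 0.07) was higher and CREM (-0.68, SE 0.09), which yields both activators and the repressor ICER, was lower, with a median of 0.05. Among 8 decay factors of AU-rich RNA only ZFP36, already named, was called. Of the EGR corepressors and NR4A partners 1 of 4 was called, RXRA (0.27, SE 0.07), and not without EV replicate 5 (0.22, adjusted p = 0.0569).

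Genes known as EGR1 targets lay on both sides. Of 14 tested, THBS1 (1.18, SE 0.11), TGFB1 (0.34, SE 0.06) and CCND1 (0.30, SE 0.07) were higher in the second set, where EGR1 RNA was lower. VEGFA (-0.78, SE 0.11) and CDKN1A (-0.56, SE 0.15) were lower, of which CDKN1A did not pass with EV replicate 4 left out (-0.43, adjusted p = 0.0784) and likewise with OE replicate 4 left out (-0.42, adjusted p = 0.0600). Correction for GC content ended the calls of TGFB1 (0.16, adjusted p = 0.0898) and RXRA (0.14, adjusted p = 0.126). The median of the 14 was -0.11, and over all 14217 genes 9.27% were called higher and 9.17% lower.

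With OE against EV, the same lists had few calls. Over both sets 0 genes of any list passed. The lowest p in each list belonged to FOSB (0.35, SE 0.09) among the immediate-early genes, SRF itself (0.22, SE 0.07), RPS6KA4 (0.24, SE 0.07), the ERRFI1 inhibitor (-0.10, SE 0.08), RXRA (0.14, SE 0.07), TGFB1 (0.15, SE 0.06) and KHSRP (0.16, SE 0.10), none of which passed. Without the filter on low counts KLF10 did (-0.51, adjusted p = 1.9e-05 by edgeR). In the first set 2 of 33 immediate-early genes fell, ATF3 (-1.49, SE 0.13) and KLF10 (-0.95, SE 0.10), neither a member. Over all genes 0.0349% were called lower there. At an unadjusted p under 0.05 by edgeR stood 15 of the 33, 3 of them higher, beside 1268 of 14340 genes. The median of the 33 was -0.16 in the first set and 0.13 in the second. In the second set 30 of the 33 lay above 0, beside 7319 of 14419 genes, and 1 had an unadjusted p under 0.05. ATF3 was lost without EV replicate 1, OE replicate 1 or OE replicate 2 (adjusted p = 0.0837, 0.173 and 0.342), and KLF10 without EV replicates 1 or 3 or any 1 OE replicate (adjusted p = 0.0607 to 0.495). Without EV replicate 2, SRF (0.22, adjusted p = 0.0408), RPS6KA4 (0.34, adjusted p = 0.00201) and VEGFA (0.32, adjusted p = 0.00189) were called higher in the first set and the kinase gene BRAF (-0.42, adjusted p = 0.00766) lower by edgeR, and DESeq2 called VEGFA with all 6 libraries (0.36, adjusted p = 0.0341).

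Between replicates 5 and 4 of the second set, 9 of the 33 immediate-early genes were higher in replicate 5 and 2 lower by edgeR. Over all 14419 genes 7.28% were higher and 7.1% lower by edgeR, and 1.39% and 1.22% by DESeq2. FOS (1.998, SE 0.18) stood closest to EGR1 (2.15), followed by the antiproliferative gene BTG2 (1.08), the factor genes KLF2 (0.63) and JUN (0.48) and the AP-1 subunit gene FOSL1 (0.30), and DESeq2 also called these 5. PLK3, PPP1R15A, GEM and ZFP36, higher, and KLF4 (-0.51) and DUSP5 (-0.26), lower, were lost with DESeq2. Of the 10 ERK feedback inhibitors 3 were higher by edgeR (ERRFI1, DUSP6 and SPRED3) and 0 lower, and DESeq2 called 0 of the 3. Calls were not limited to these lists. By edgeR 4 of 8 decay factors of AU-rich RNA and 3 of 15 genes of the RAS-ERK cascade were higher and 0 lower. Of 14 genes known as EGR1 targets 3 were higher and 2 lower. Among 16 factors that act on immediate-early promoters 1 was higher and 0 lower.

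**Figure D4:**
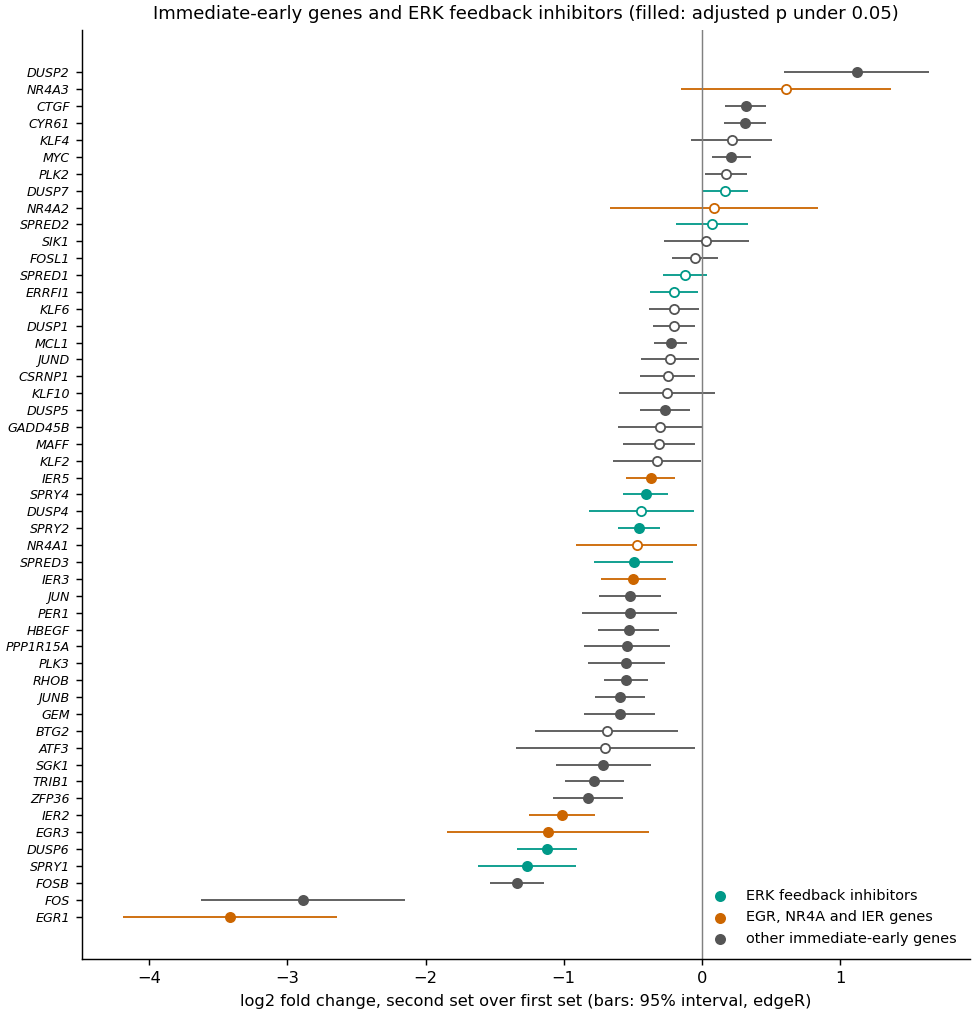
Log2 fold change of the second set over the first, with 95% intervals, for the 8 tested members (orange), 33 other immediate-early genes (grey) and 10 ERK feedback inhibitors (green), ordered by value; filled symbols have an adjusted p under 0.05. EGR1 (-3.41) and FOS (-2.89) stand apart at the low end, and NR4A3 and NR4A2 lie among the few values above 0.

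Variation within the sets showed which members moved together. Each library was centred on the mean of its set, and r was taken over the 10 libraries on log2 CPM, as a description of libraries that share depth and handling. Of 28 pairs of the 8 tested members 20 had r above 0, and each of the 8 pairs below 0 held NR4A2 or NR4A3. The closest pair was NR4A1 and IER2 (r = 0.90, rho = 0.77), then IER3 and IER5 (r = 0.82, rho = 0.78), IER2 and IER3 (r = 0.76, rho = 0.78), EGR1 and NR4A1 (r = 0.74, rho = 0.73), NR4A2 and NR4A3 (r = 0.73, rho = 0.70) and EGR1 and IER2 (r = 0.72, rho = 0.59). Without the 2 libraries farthest from the median of the first-named gene these were 0.77, 0.76, 0.66, 0.80, 0.80 and 0.80 in the same order. For EGR1 the 2 were OE replicates 4 and 5, while EV replicates 4 and 5, which differ in EGR1 in the same direction, were kept. EGR1 and NR4A3 had r = -0.55, which became 0.31 without those 2 libraries and so rests on them.

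**Figure D5:**
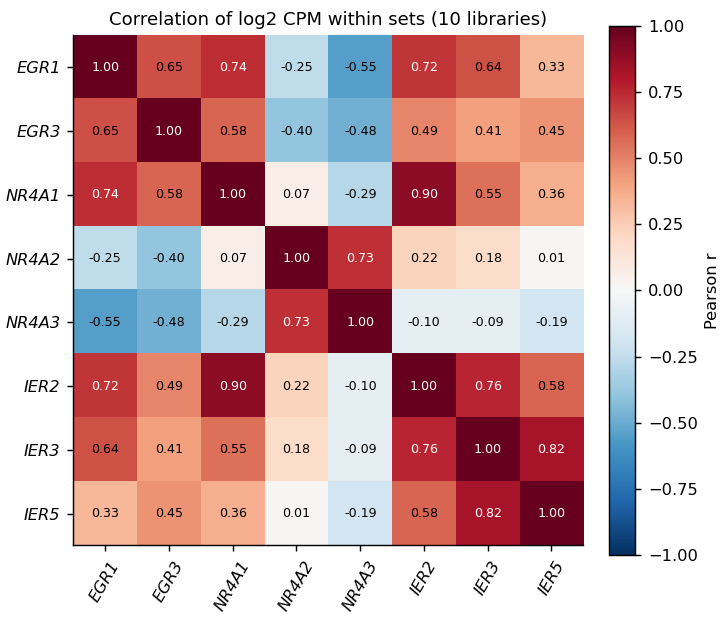
Pearson r between members over the 10 libraries, on log2 CPM centred on the mean of each set. Red cells are above 0 and blue below; NR4A2 and NR4A3 correlate with each other (0.73) and hold all cells below 0, while EGR1, EGR3, NR4A1, IER2, IER3 and IER5 form a block of values from 0.33 to 0.90.

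The genes whose pattern within the sets was most like that of a member were sought among 12092 genes with a mean log2 CPM of at least 1. For EGR1 they were SQLE (r = 0.99), a cholesterol synthesis enzyme, THBD (0.97), the thrombin receptor thrombomodulin, CNIH3 (0.96), the glycolytic enzyme gene ENO2 (0.96) and SULF2 (0.96), a sulfatase of heparan sulfate. These stayed at 0.92 to 0.99 without the 2 libraries farthest from the EGR1 median, OE replicates 4 and 5. Each was also higher in replicate 5 than in replicate 4 of the second set: SQLE by 0.56, THBD 1.40, CNIH3 0.33, ENO2 0.74 and SULF2 1.02. EV replicates 4 and 5, which differ in EGR1 in the same direction, were kept. Leaving out 2 libraries thus cannot separate the likeness from that difference between replicate numbers. THBD also differed between the sets (-1.88, SE 0.25) in the direction of EGR1.

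For the other members the closest genes were TNFAIP8L1 (0.93) and ECE1 (0.92) for EGR3, MTA1 and TMCO3 (both 0.96) for NR4A1, SLC43A2 (0.92) and LAMA2 (0.88) for NR4A2, and LSG1 (0.95) and EZR (0.90) for NR4A3. For the IER genes they were MED18 (0.95) and PGD (0.95) for IER2, FAH (0.97) and SAC3D1 (0.96) for IER3, and TRIR and WNT5B (both 0.98) for IER5. Without centring on the sets, r was -0.28 for NR4A1 with MTA1 and 0.19 for IER3 with SAC3D1. It was 0.41 to 0.99 for the other pairs of this paragraph. MTA1 (0.28) and TMCO3 (0.29) were also higher in replicate 5 than in replicate 4 of the second set, as was NR4A1. The search over 12092 genes picks the highest values by construction, so they are a description of these 10 libraries.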

How the data were processed

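RNA of 10 TPC-1 libraries (5 EV, 5 OE) was prepared with TRIzol, DNase I and the NEBNext Ultra RNA kit, per the labels' protocols. The deposited tables hold whole-number read counts per gene with the authors' gene lengths in bases, per the file headers; the submitters' processing notes list CASAVA 1.8, fastp, HISAT2 2.0.5, featureCounts 1.5.0-p3, DESeq2 1.20.0 and build hg38, with no order. The log2 fold changes of single library pairs are from the authors' deposited table, and 14 other per-library columns were not used here.

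The members and lists were chosen with earlier results of these data known. Groups came from the labels and sets from the table that holds each library. Counts were filtered by filterByExpr, scaled by TMM and tested with edgeR 4.0.16 (R 4.3.3), quasi-likelihood, with set as a term over both sets, and Benjamini-Hochberg adjustment over all genes at 0.05. SE is the size of the log2 change over the root of F. CPM are TMM-scaled, and log2 CPM used a prior count of 2. The fits were tested on simulated data. Alternatives were RLE size factors, no filter, DESeq2 1.42.0, limma-voom (limma 3.58.1), a GC offset, a replicate block, and leaving out each library. Total counts per library limit precision as given with the levels. Replicate libraries differed beyond counting noise, with a chi-square over its degrees of freedom of 4.30 to 53.1.

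Named were all members and their relatives EGR4 and IER5L, up to 2 genes of each list with the lowest p in each OE comparison, any list gene called in a fit, and the genes most like each member (5 for EGR1, 2 for the others). Some genes of the lists are not reported here.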

Additional observations from a re-analysis of the deposited data

Results flagged for a closer look

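In the 5 EV libraries NR4A1 was lowest in replicate 4, at 3.09 CPM, a library far from the other 4 (5.85 to 6.51 CPM). In the 5 OE libraries NR4A2 (4.04 CPM) and NR4A3 (2.73 CPM) were both highest in replicate 4, far from the next library. EGR4 was at 0.111 CPM, 2 counts, in OE replicate 2 and at 0 in the other OE libraries. Chance marks about 1 in 20 groups in this way where all values come from the same normal distribution. These groups join both sets, and EGR4 was mostly at 0, so that rate need not hold here.

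The change of the stress-induced factor gene ATF3 with OE differed between the sets by 2.03 on the log2 scale, the 1 gene of 14217 that passed the interaction test in edgeR. It did not pass without EV replicate 4 (1.94, adjusted p = 0.249), EV replicate 5 (2.14, 0.103), OE replicate 1 (1.97, 0.0797), OE replicate 2 (1.99, 0.112) or OE replicate 4 (1.83, 0.119).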

How the results depend on the processing

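Counts of genes called with OE depended on the tool. Without the filter 7 were higher and 16 lower over both sets, 30 and 60 in the first set, 9 and 3 in the second, and 20 and 8 in the difference between sets; with DESeq2 these were 2 and 4, 24 and 52, 1 higher, and 9 higher. A fit of all 10 libraries called 8 lower in the first set. Leaving out 1 library gave 0 to 896 higher, 0 to 682 lower and 0 to 2 members higher in the first set (the highest of each without EV replicate 2), 0 to 1 lower in the second, 0 to 6 higher and 0 to 1 lower in the difference, and 653 to 1995 higher and 659 to 1855 lower between the sets. For replicate 5 over 4, DESeq2 called 200 genes higher and 176 lower, and 2 members; leaving out a library was not run there, as it leaves no residual degree of freedom.

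Same-numbered libraries of the first set correlated at -0.11, 0.00 and 0.16 in their deviations from the mean of group and set. In the second set both numbers had 0.31, which is 1 value, since 2 libraries per group deviate equally in opposite directions. The labels do not say what joins same-numbered libraries, so the main fit did not take the numbers as pairs. With the replicate block 1 gene was lower in the first set, 47 higher and 24 lower in the second, and 3 higher in the difference; with the replicate block and GC offset these were 0, 44 and 27, and 0. The replicate block called 0 members with OE. KLF10 in the first set was lost under it (adjusted p = 0.0532).

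Signs turned for these log2 changes with OE. The GC offset, without and with the replicate block, gave IER5L -0.048 and -0.042 over both sets, and in the first set IER2 -0.067 and -0.069, IER3 -0.021 and -0.0073 and IER5L -0.016 and -0.013. It gave IER3 0.065 and 0.052 in the difference between sets. NR4A1 in the second set was -0.0021 with DESeq2 and -0.027 with the GC offset, and EGR1 in the difference -0.15 with limma-voom and -0.065 with the replicate block.

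Leaving out 1 library turned signs too. The ranges over both sets were -0.10 to 0.44 for EGR1, -0.25 to 0.27 for NR4A2, -0.60 to 0.025 for NR4A3 and -0.010 to 0.18 for SPRED2, which in the first set had -0.032 to 0.34. In the second set they were -1.51 to 1.40 for EGR1, -0.36 to 0.81 for EGR3, -0.44 to 0.63 for NR4A1, -0.25 to 1.201 for NR4A2, -0.74 to 0.99 for NR4A3, -0.13 to 0.48 for IER2, -0.11 to 0.28 for IER3, -0.20 to 0.11 for IER5L, -0.029 to 0.22 for DUSP7, -0.35 to 0.030 for NAB1, -0.032 to 0.11 for RXRA and -0.21 to 0.0011 for ZFP36L2. In the difference between sets they were -1.71 to 1.199 for EGR1, -1.14 to 0.032 for EGR3, -0.70 to 0.38 for NR4A1, -0.20 to 1.54 for NR4A3, -0.21 to 0.41 for IER2, -0.21 to 0.19 for IER3 and -0.21 to 0.014 for IER5. Between the sets they were -0.37 to 0.33 for NR4A2 and -0.12 to 0.018 for IER5L. Where leaving out a library left 1 sample in an arm, that sample was assumed to vary like the others. The cause was not tested for any of these. Depth limits EGR2, EGR3, NR4A2 and NR4A3, at 2 to 68 counts per library.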
